A study of Mus musculus with 6 samples.

Results

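Small nucleolar RNAs (snoRNAs) were taken from the array by name. Every probe set was used that the platform annotation pairs with exactly 1 gene symbol, where that symbol begins with Snora or Snord followed by a digit. This gave 53 probe sets for 51 genes, out of 21640 probe sets with 1 symbol and 34760 deposited probe sets. Of these, 22 probe sets (20 genes) belonged to the H/ACA class (Snora) and 31 probe sets (31 genes) to the C/D class (Snord). Snora3 and Snora21 each had 2 probe sets. Another 22 probe sets that pair a snoRNA with further symbols were left out, and no member of the large imprinted C/D clusters was among the 53.

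The cells were plasmacytoid dendritic cells (pDCs), the interferon-producing dendritic cells of blood and lymphoid tissue. They were grown from total bone marrow of 3 C57BL/6 mice with 25 ng/ml Flt-3L, the cytokine that drives dendritic cell development, and sorted as B220+CD11c+. All 3 mice carried the genotype Gfi1f/f; Gfi1bf/f; ERCre, so KO and WT cultures share every allele, and the age of the mice was not given in the sources used here. In KO cultures 1 µM tamoxifen was added to activate the Cre recombinase, which was knocked into the ubiquitously active Rosa26 locus, and delete Gfi1 and Gfi1b, a pair of related transcriptional repressors. The WT culture of the same mouse was left untreated. Each mouse gave 1 KO and 1 WT array (n = 3 each), and mice are numbered 1 to 3 as in the labels. No tamoxifen-treated culture without floxed alleles was part of these 6 arrays, so an action of tamoxifen or Cre and the loss of the genes cannot be told apart. The study described the deletion in pDC cultures as inefficient by genotyping PCR. In such bulk samples fewer cells of a type and less RNA per cell cannot be told apart either.

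snoRNAs are short, stable nucleolar RNAs that base-pair with ribosomal RNA and bring an enzyme to 1 nucleotide of it. H/ACA snoRNAs carry Dkc1, Nop10, Nhp2 and Gar1 and guide the change of uridine to pseudouridine, while C/D snoRNAs carry Fbl, Nop56, Nop58 and Snu13 and guide methylation of the ribose 2′ hydroxyl. A few act in cleavage and folding of the pre-rRNA, among them U8 (Snord118), U14 (Snord14), U22 (Snord22) and U17 (Snora73). In mammals most are cut out of the introns of host genes, many of which encode ribosomal proteins or nothing but the snoRNAs. A snoRNA probe set therefore reads the mature RNA, the unspliced host transcript, or both. RNA was extracted with TRIzol and cleaned on RNeasy mini columns, on which RNAs of snoRNA length are kept poorly; the part of this step in the values was not tested.

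The 6 arrays had similar overall levels, with column medians of 69.0 to 72.9 intensity units on a linear scale. As a background level, the 95th percentile of 1204 probe sets for olfactory and vomeronasal receptors was used, which was 61.9 units. All 15 measured pDC marker probe sets were above that level on all 6 arrays. So were 7 of 10 macrophage, 3 of 10 neutrophil, 3 of 10 stromal and 3 of 5 measured B cell markers. Passing this level therefore does not show how pure the sorted cells were. The Gfi1 probe set read 63.2 ± 3.44 units in KO and 49.1 ± 6.49 units in WT cells, and Gfi1b read 244 ± 44.2 units in KO and 165 ± 12.9 units in WT cells (SD, n = 3 each). Gfi1 was above the background level on 2 of 6 arrays only, the KO arrays of mice 2 and 3, so its difference lies at that level. Gfi1b was above it on all 6. These probe sets summarise the whole transcript and check nothing about the deleted exons.

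Most snoRNA probe sets gave a signal above background. The mean over the 6 arrays exceeded 61.9 units for 40 of 53 probe sets, namely 18 of 22 H/ACA and 22 of 31 C/D. All 6 arrays were above it for 18 H/ACA and 18 C/D probe sets, while 8 probe sets were above it on no array. These 8 were Snora2b, Snora69, Snord15a, Snord42a, Snord42b, Snord52, Snord58b and Snord73a. Single values ran between 22.5 and 1941 units in the H/ACA class and between 13.7 and 5112 units in the C/D class. Probe sets bind their targets with different strength, so these levels do not rank one snoRNA against another.

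The arrays differed in snoRNA signal more by mouse than by treatment. The median H/ACA intensity was 201, 132 and 143 units in KO cells of mice 1, 2 and 3, against 190, 151 and 136 units in their WT cells. The median C/D intensity was 156, 90.8 and 87.1 units in KO cells of mice 1, 2 and 3, against 126, 103 and 96.6 units in their WT cells. In both classes and both treatments mouse 1 was the highest. Both arrays of mouse 1 lay above all 4 others for 35 of 53 snoRNA probe sets (16 H/ACA and 19 C/D), against 21.6% of all probe sets tested. The KO array of mouse 1 was the highest KO array for 49 of 53 (40.7% of all), and its WT array the highest WT array for 48 of 53 (49.8% of all). Among probe sets above background, both mouse 1 arrays lay above the others for 27 of 40 snoRNA probe sets, beside 30.7% of all such probe sets. At that level the KO array of mouse 1 was the highest for 37 of 40 (48.8% of all), and its WT array for 37 of 40 (52.4% of all). Mouse numbers are not a condition of the study, so these are descriptions with no test.

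**Figure D1:**
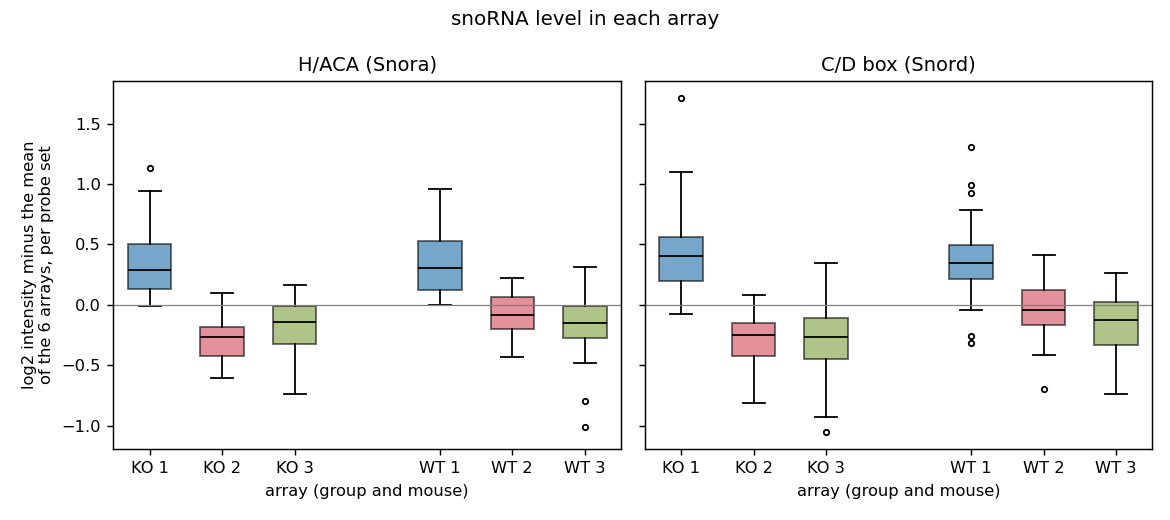
Box plots of each snoRNA's log2 intensity minus its own mean over the 6 arrays (vertical axis), for KO and WT arrays of mice 1 to 3 (horizontal axis), with 22 H/ACA probe sets on the left and 31 C/D probe sets on the right. Boxes span the quartiles with the median as a line, whiskers reach the last probe set within 1.5 box lengths, circles are probe sets beyond them, and both mouse 1 boxes lie above the others in each class.

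The size of the mouse 1 excess was similar in the 2 classes. As the mean log2 level of the mouse 1 arrays minus that of the other 4 arrays, its median was 0.47 over H/ACA and 0.58 over C/D probe sets. Over all 53 it was 0.52, or 1.44-fold, with quartiles of 0.29 and 0.79. The corresponding median was 0.04 over all probe sets tested, 0.05 over 296 microRNA probe sets (192 of them above background on no array), 0.12 over 193 probe sets of ribosomal protein genes, and 0.19 over 12 probe sets of the non-coding host genes Gas5 and Snhg. The largest differences belonged to Snord118 (1.88), Snord61 (1.81), Snora23 (1.36), Snora31 (1.20), Snora52 (1.19) and Snord49b (1.18), chosen here for their values. Snord61 was below background on every array of mice 2 and 3, so its value depends on signal at the background level. Snord104 (-0.20) and Snord52 (-0.055) were the exceptions, with lower means in mouse 1.

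The 2 mouse 1 arrays also stood apart in cell type markers. Summed pDC marker intensity was 50813 units in KO and 52912 units in WT cells of mouse 1, against 33663 to 36632 units in KO and 23206 to 28249 units in WT cells of mice 2 and 3. Summed over 10 neutrophil markers, of which 3 were above background on every array, it was 618 units in KO and 1449 units in WT cells of mouse 1, and 2508 to 4409.6 units in KO and 8700.1 to 9929 units in WT cells of mice 2 and 3. For 10 macrophage markers, 7 of them above background throughout, the sums were 1938 units in KO and 2409 units in WT cells of mouse 1, and 11197.5 to 12251.5 units in KO and 15614 to 17533 units in WT cells of mice 2 and 3. The 15 measured pDC markers had a mouse 1 excess between 0.30 (Irf7) and 1.34 (Cox6a2), with 1.32 for Ccr9, 0.81 for Siglech and 0.45 for Bst2. By the sums, mouse 1 cultures were thus the highest for pDC markers and the lowest for the myeloid markers. The same held for 10 stromal markers (3 above background throughout), which summed to 562 units in KO and 625 units in WT cells of mouse 1, and at least 2981 units in KO and 8275 units in WT cells of the other mice. For 5 B cell markers (3 above background throughout) the sums were 986 units in KO and 765 units in WT cells of mouse 1, and at least 2701 units in KO and 3947 units in WT cells of the other mice. The part of cell composition in the snoRNA levels was not tested.

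Tamoxifen treatment gave no snoRNA difference that passed the test. With limma across all 21640 probe sets, 0 of 53 snoRNA probe sets had an adjusted p under 0.05 (0% of all probe sets), and the smallest adjusted p of a snoRNA was 0.692. With the mouse as a block in the fit the count was again 0 (0% of all), with a smallest adjusted p of 0.288. Before adjustment, no snoRNA was higher in KO with a limma p under 0.05 (5.14% of all probe sets) and 3 were lower (1.9% of all), which were Snora3, Snora33 and Snord38a. With the mouse as a block 0 were higher (7.46% of all) and 10 were lower (5.99% of all), 5 from each class. Among probe sets with a mean above background, the blocked count was 7 of 40 snoRNAs (17.5%), beside 8.62% of all such probe sets. These 10 were Snora21, both probe sets of Snora3, Snora33, Snora69, Snord14e, Snord37, Snord38a, Snord49b and Snord61. For comparison, 36 of 296 microRNA probe sets were higher and 2 lower in KO at the same unadjusted limit without the block. Most of these microRNA probe sets (192) were above background on no array, and higher values in KO were less common above background (2.67% of such probe sets), so the 2 kinds of RNA are not matched in level.

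The classes differed little in their typical difference. On the log2 scale, KO minus WT had a median of 0.0076 over H/ACA probe sets (quartiles -0.23 and 0.08) and of -0.10 over C/D probe sets (quartiles -0.23 and 0.0084), beside 0.03 over all probe sets tested. H/ACA medians in mice 1, 2 and 3 were 0.01, -0.26 and 0.03 (SD 0.16), and C/D medians were 0.03, -0.26 and -0.17 (SD 0.15). The corresponding medians over all probe sets were -0.00072, 0.02 and 0.04. Over all members both classes were thus displaced downward by the same amount in mouse 2, and in mouse 3 the C/D class alone had a negative median. Among probe sets above background the medians in mice 1, 2 and 3 were -0.03, -0.07 and -0.0071 over all. At that level they were 0.01, -0.26 and 0.06 over H/ACA, and 0.06, -0.20 and -0.11 over C/D. H/ACA minus C/D was 0.11 for the medians over the 3 mice, and -0.02, 0.00048 and 0.20 within mice 1, 2 and 3 (SD 0.12), so the class difference was no larger than its spread between mice. It was widest in mouse 3, and without that mouse the difference of medians was 0.054. Without both arrays of mouse 1 the medians were -0.08 for H/ACA and -0.22 for C/D.

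**Figure D2:**
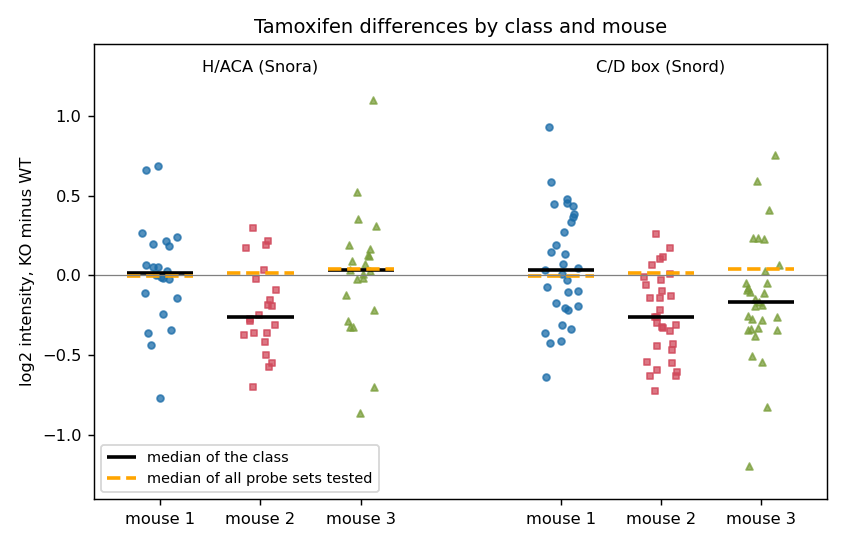
Log2 intensity, KO minus WT (vertical axis), of each snoRNA probe set in mice 1, 2 and 3 (horizontal axis), with 22 H/ACA probe sets on the left and 31 C/D probe sets on the right. Solid lines are class medians and dashed lines the median of all 21640 probe sets; both classes lie below the dashed line in mouse 2, and in mouse 3 C/D does while H/ACA does not.

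Counts of direction gave the same picture. The mean difference was positive for 11 and negative for 11 H/ACA probe sets, and positive for 8 and negative for 23 C/D probe sets, while 55.9% of all probe sets had a positive and 44.1% a negative mean. Direction varied with level, however: of the 12488 probe sets above background 7226 had a negative mean, or 57.9%, against 23 of 40 snoRNA probe sets above background, or 57.5%. By class these were 8 of 18 H/ACA and 15 of 22 C/D probe sets. KO was lower than WT in mouse 1 for 10 H/ACA and 14 C/D probe sets (50.1% of all), in mouse 2 for 17 H/ACA and 25 C/D (47.6% of all), and in mouse 3 for 9 H/ACA and 23 C/D (43.7% of all). Above background the shares in mice 1, 2 and 3 were 45%, 77.5% and 57.5% of 40 snoRNA probe sets, beside 57.2%, 61.9% and 51.0% of all such probe sets. KO was higher in all 3 mice for 5 of 53 (21.3% of all) and lower in all 3 mice for 11 of 53 (17.4% of all). Above background, 9 of 40 snoRNA probe sets (22.5%) were lower in all 3 mice, beside 26.0% of all such probe sets. No snoRNA had its KO arrays all above its WT arrays (10.2% of all), and Snora3 and Snord38a had them all below (4.65% of all). Above background these were 2 of 40 snoRNA probe sets (5%), beside 6.97% of all such probe sets.

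**Figure D3:**
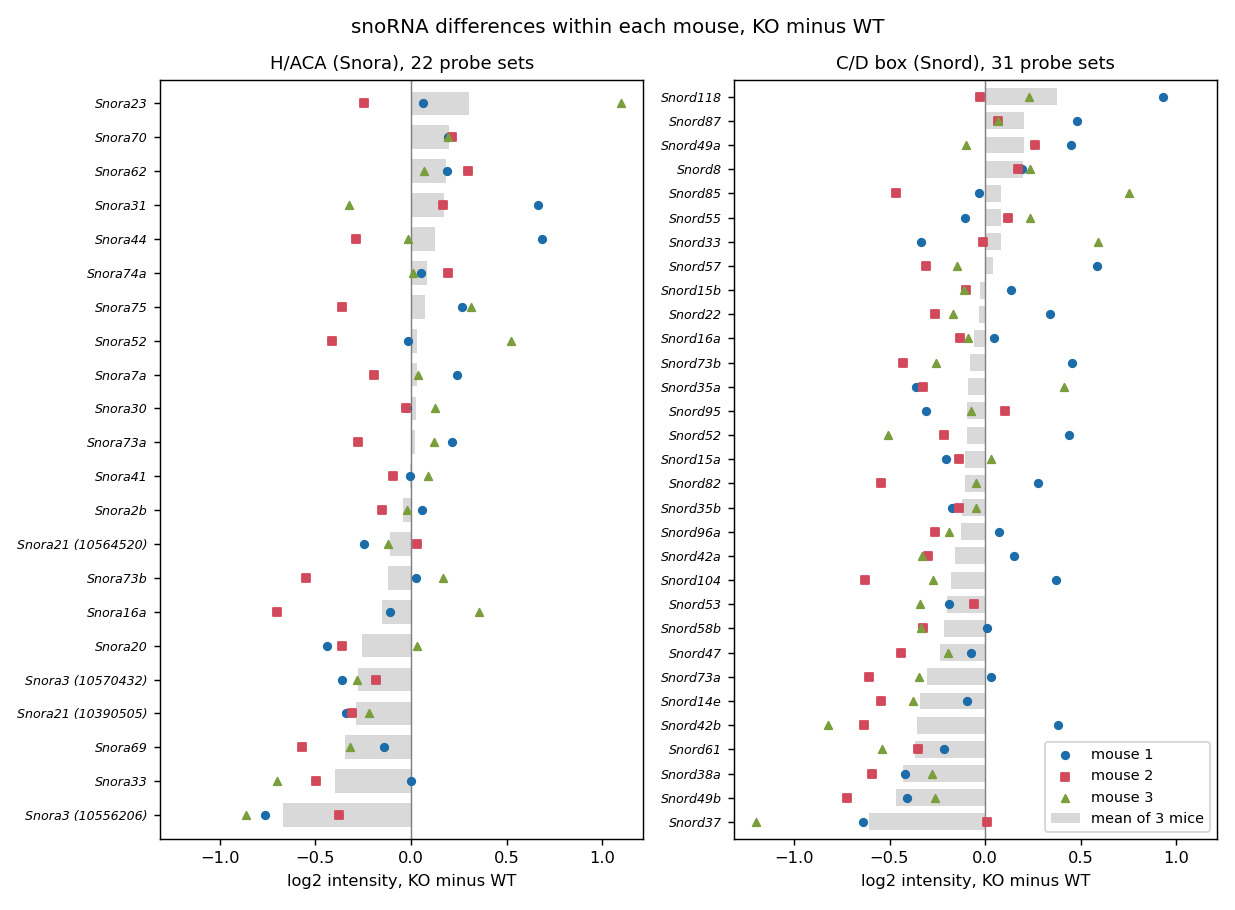
Log2 intensity, KO minus WT (horizontal axis), of the 22 H/ACA (left) and 31 C/D (right) probe sets, each with a point per mouse and a grey bar for the mean of the 3 mice, ordered by that mean. Means ran between -0.67 (Snora3) and 0.38 (Snord118), and for most probe sets the 3 mice fell on both sides of 0.

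Among H/ACA guides with the same sign in all mice, Snora3 differed most. It lies in an intron of Rpl27a, which encodes a protein of the large ribosomal subunit. The files give no probe set positions, so the second probe sets of Snora3 and Snora21, and that of Snord118, may read other copies than the RefSeq gene of that name. Its first probe set (10556206) read 425, 357 and 256 units in KO cells of mice 1, 2 and 3, against 723, 464 and 466 units in WT cells. Every KO value was below every WT value, which held for 4.65% of all probe sets. WT was 1.59-fold higher on the log2 mean (KO minus WT -0.67, SE 0.25, limma adjusted p = 0.692). With the mouse as a block the SE was 0.13 and the limma adjusted p was 0.288. The second probe set (10570432) read 602.5, 504 and 460.4 units in KO cells, against 773, 572.5 and 560.1 units in WT cells. Here KO was lower in each mouse but the groups overlapped, with a smaller difference of -0.28 (SE 0.17, or 0.098 with the block).

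Snora69 lies in Rpl39 and Snora21 in Rpl23, genes of 2 other large subunit proteins. Snora69 read 55.4, 38.9 and 39.5 units in KO cells, against 61.1, 57.7 and 49.3 units in WT cells. All 6 values were below the background level, so the difference of -0.34 (SE 0.17) lies in the range of the receptor probe sets. Snora21 (10390505) read 114.6, 88.0 and 72.4 units in KO cells, against 145, 109 and 84.2 units in WT cells. It was lower in KO in each mouse by a similar amount, -0.34, -0.31 and -0.22, yet the groups overlapped because the mice differed more than the treatments. Its SE was 0.25, or 0.097 with the mouse as a block (limma adjusted p = 0.327). Its other probe set (10564520) had a mean difference of -0.11 and no common sign.

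The H/ACA guides that were higher in KO in every mouse had small differences. Snora70, in the Rpl10 gene, read 521, 373 and 321 units in KO cells, against 456, 321 and 281 units in WT cells. The log2 differences in mice 1, 2 and 3 were nearly equal at 0.19, 0.21 and 0.19, and the groups overlapped. Snora62, first known as E2 and housed in Rpsa, read 69.3, 65.3 and 60.6 units in KO cells, against 61.0, 53.1 and 57.7 units in WT cells. These values straddle the background level, the groups overlapped, and the difference was 0.18 (SE 0.10). Snora74a, in Snhg4, read 79.9, 80.3 and 74.5 units in KO cells, against 77.0, 70.3 and 74.0 units in WT cells, a difference of 0.09 (SE 0.09).

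Other H/ACA members had no common direction. U17 RNA takes part in early cleavage of the pre-rRNA and is made as Snora73a and Snora73b from introns of Snhg3. Snora73a read 247, 146 and 180.0 units in KO cells, against 213, 177 and 166 units in WT cells, and Snora73b read 222, 143 and 215 units in KO cells, against 218, 209 and 192 units in WT cells. KO was the higher in mice 1 and 3 and the lower in mouse 2 for both, and their means were 0.02 (SE 0.21) and -0.12 (SE 0.19). Snora16a, in Snhg12, read 203, 93.6 and 131 units in KO cells, against 219, 152 and 103 units in WT cells, with a mean of -0.15 (SE 0.37, or 0.19 with the mouse as a block). Its 3 mice spanned -0.70 to 0.35. Snora33 and Snora23 were added after their values were seen. Snora33, in Rps12, read 167, 132 and 122 units in KO cells, against 167, 186 and 198 units in WT cells, so the mean of -0.40 (SE 0.15) came from mice 2 and 3. Snora23, in the importin gene Ipo7, read 1941, 680 and 1075 units in KO cells, against 1858, 807 and 502 units in WT cells. Its mean of 0.30 (SE 0.56, or 0.24 with the block) rested on mouse 3.

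In the C/D class Snord38a was the member whose groups did not overlap, with every KO array below every WT array, as in 4.65% of all probe sets. In humans it guides methylation of 28S rRNA. It read 89.8, 74.1 and 81.95 units in KO cells, against 120, 112 and 99.4 units in WT cells. The difference was -0.43 (SE 0.12, limma adjusted p = 0.692), and it kept to between -0.51 and -0.35 whichever array or mouse was left out. With the mouse as a block the SE was 0.11 and the limma adjusted p was 0.297.

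Snord49b gave the strongest signal of all 53 probe sets. It is processed from 2410006H16Rik, a gene that RefSeq lists under its clone name. It read 3847, 1735 and 1571 units in KO cells, against 5112, 2859 and 1884 units in WT cells. KO was lower in each mouse, with a mean of -0.46 (SE 0.47), but the KO cells of mouse 1 read higher than the WT cells of mice 2 and 3. With the mouse as a block the SE was 0.12 and the limma adjusted p was 0.303. Snord49a from the same transcript read 156, 75.2 and 56.2 units in KO cells, against 114.2, 62.8 and 60.3 units in WT cells. Its difference of 0.20 (SE 0.43, or 0.13 with the block) was in the other direction.

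Further C/D members were lower in KO in all mice. Snord14e is a copy of U14, which acts in 18S rRNA processing, in the heat shock cognate gene Hspa8. It read 546, 270.2 and 337 units in KO cells, against 584, 394 and 438 units in WT cells (difference -0.34, SE 0.28). Snord61, in the RNA-binding protein gene Rbmx on the X chromosome, read 63.1, 17.3 and 16.0 units in KO cells, against 73.2, 22.1 and 23.3 units in WT cells (difference -0.37, SE 0.68). Only its mouse 1 arrays were above background. Snord47, in the non-coding host Gas5, read 328, 188 and 175 units in KO cells, against 345, 256 and 201 units in WT cells (difference -0.24, SE 0.30). In these 3 the groups overlapped, with the KO cells of mouse 1 above the WT cells of mice 2 and 3. With the mouse as a block the SEs were 0.12 for Snord14e, 0.11 for Snord61 and 0.11 for Snord47, and the limma adjusted p values were 0.332, 0.308 and 0.401. Snord35b and Snord53 also had 1 sign, with means of -0.12 and -0.20.

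Snord8 and Snord87 were the C/D members higher in KO in every mouse. Snord8, which lies within the chromatin remodeller gene Chd8, read 187, 160.2 and 174 units in KO cells, against 163, 142 and 148 units in WT cells. Its differences of 0.19, 0.17 and 0.23 in mice 1, 2 and 3 were nearly equal (mean 0.20, SE 0.11), and the KO value of mouse 2 lay below the WT value of mouse 1. Snord87, from the Snhg6 locus, read 91.8, 63.0 and 66.9 units in KO cells, against 65.9, 60.1 and 63.9 units in WT cells. Its mean of 0.20 (SE 0.16) came mainly from mouse 1.

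For Snord118 and Snord22, C/D RNAs with a role in rRNA processing, the mice differed widely. Snord118 (U8), needed for maturation of the large subunit rRNAs, read 483, 89.2 and 109 units in KO cells, against 254, 90.9 and 93.3 units in WT cells. Its mean of 0.38 was the highest of all members, with an SE of 0.73, or 0.18 with the mouse as a block (limma adjusted p = 0.412). The value was 0.10 without both arrays of mouse 1, and -0.39 without its KO array alone, which leaves its high WT array in the comparison. Snord22 (U22), released from Snhg1 and needed for 18S rRNA, read 355.5, 186 and 156 units in KO cells, against 281, 223 and 175 units in WT cells. Its sign differed between mice and the mean was -0.03 (SE 0.34, or 0.14 with the block). Snord52 was included because it is in the study's gene lists. It stayed below background at 30.7, 28.7 and 20.4 units in KO cells, against 22.7, 33.3 and 29.0 units in WT cells, with a mean of -0.09 (SE 0.21).

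snoRNAs of 1 host did not always differ in the same direction. Of the 53 probe sets 49 lay within exactly 1 gene of RefSeq (GRCm38.p6), 3 within several and 1 (Snord118) within none. There were 10 pairs of members with the same host, and their within-mouse differences had the same sign in 19 of 30 cases (r = 0.29 over 30 points, a description, since each pair shares a transcript and arrays). Within mice 1, 2 and 3 r was 0.04, -0.34 and 0.62 over the 10 pairs. Pairs from different hosts were not compared, and 42 of all 53 members were lower in KO in mouse 2. The pairs in Rpl13a, Rpl23a, Rps3a1 and Snhg3 had matching signs in all 3 mice. Snord33 and Snord35a of Rpl13a gave -0.34 and -0.36 in mouse 1, -0.01 and -0.32 in mouse 2, and 0.59 and 0.41 in mouse 3. By contrast Snora44 and Snora16a of Snhg12 gave 0.68 and -0.11 in mouse 1. The nucleolin gene Ncl holds a guide of each class, Snora75 (H/ACA) and Snord82 (C/D), which read 0.26 and 0.27 in mouse 1, -0.36 and -0.55 in mouse 2, and 0.31 and -0.05 in mouse 3.

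Differences of host transcripts were smaller than those of the snoRNAs inside them, at much higher intensity. For 28 members the single containing gene had a probe set, 22 host genes in all, so hosts of several members count once each. Each host was read by its probe set with the highest mean, while snoRNAs kept every probe set. That choice favours high host levels, and other probe sets of the hosts were not compared. All 22 hosts were above background on every array, with medians per array of 2868 to 3266 units, while 19 of the 28 snoRNA probe sets had a mean above background and 5 were above it on no array. The part of this gap in level in the comparison was not tested. The median absolute log2 difference, KO minus WT, was 0.18 over these 28 snoRNA probe sets and 0.053 over their 22 hosts. A member lay further from 0 than its host in 20 of 28 cases and had the host's sign in 14 of 28. Across the 28 members r was -0.15 between a snoRNA's difference and its host's, which is given as a description. Rpl27a, host of Snora3, differed by 0.04, while the Snora3 probe sets differed by -0.67 and -0.28, the second of which may read another copy. Likewise the mouse 1 excess had a median of 0.59 over the 28 members and of 0.03 over the 22 hosts. Rbmx was the host with the largest excess, 0.76, and it holds Snord61 (1.81, against arrays below background), whereas Ipo7 had -0.07 and its Snora23 1.36.

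**Figure D4:**
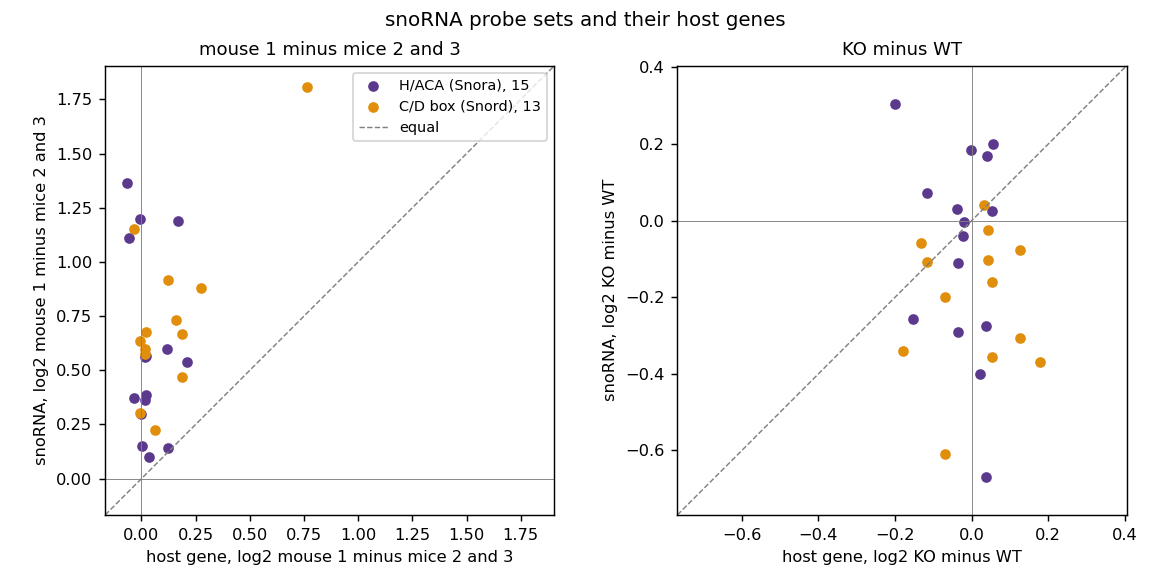
snoRNA probe sets (vertical axis) against the probe set of their host gene with the highest mean (horizontal axis), for the log2 difference between the arrays of mouse 1 and those of mice 2 and 3 (left) and for KO minus WT (right). Points are 15 H/ACA and 13 C/D members and the dashed line marks equal values. All 28 points on the left lie above the line, and on the right the hosts stay between -0.20 and 0.18 while snoRNAs reach -0.67.

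Many snoRNA hosts are known for starting their transcripts with a C inside a run of C and T, the terminal oligopyrimidine motif of ribosomal protein mRNAs. The starts of 8 hosts are shown, chosen after their sequences were seen, 4 with a run of at least 5 letters and 4 without, to show both kinds. Each line gives 25 bases from RefSeq (GRCm38.p6), 10 before and 15 from the annotated first transcribed base, 5′ to 3′ on the gene's own strand. Capitals mark the unbroken run of C and T that covers the first transcribed base.
Rpl27a (Snora3, chromosome 7): cgtgagCTCCTCCCTTTTCCCTTTC
Ipo7 (Snora23, chromosome 7): gCTTCTCTTTCCTTTCgcgccggtt
2410006H16Rik (Snord49a, Snord49b, chromosome 11): cgccgTCTTTCTCTgcggccatcat
Snhg12 (Snora16a, Snora44, chromosome 4): ttctcagTCCTTTCTCgcttcatcc
Ncl (Snora75, Snord82, chromosome 1): cggggacggaCgcgagctctggttg
Rps12 (Snora33, chromosome 10): tcatgcggccaccgccggccttttc
Rpl23 (Snora21, chromosome 11): gtccggtcacgtggctgagtgggcg
Rbmx (Snord61, X chromosome): tttccatccgggttcttcagcctcg
A run of at least 5 letters over the annotated first base was present at 10 of 30 starts of 29 host genes (33.3%), and at 10.1% of all 32851 starts in the table, on the transcribed strand alone. It was present at 3 of 11 starts of ribosomal protein hosts and 7 of 19 starts of other hosts. A counted run could have C or T at the first transcribed base, as T in Snhg12, and could lie mostly before that base. These shares are therefore not counts of the motif itself. Annotated starts can be off by a few bases, so the lack of a run in these letters says nothing of the motif's use.

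Genes of the particle proteins were more often lower than higher in KO, with none past the test. Of 27 genes, 13 were lower and 3 higher in KO in all 3 mice, beside 17.4% and 21.3% of all probe sets (26.0% and 14.2% of those above background). All 27 listed genes were measured and 0 passed the limma test at an adjusted p under 0.05; unadjusted, 1 was higher and 3 lower in KO, and with the mouse as a block 1 higher and 5 lower, beside the shares of all probe sets given above. Among H/ACA core proteins the log2 differences were -0.30 for Dkc1, the pseudouridine synthase, 0.33 for Nop10, 0.04 for Nhp2 and 0.11 for Gar1. Dkc1 read 145, 139 and 114.1 units in KO cells, against 198, 163 and 133 units in WT cells, lower in each mouse but overlapping. Nop10 read 1096, 1026 and 1169.5 units in KO cells, against 983, 909 and 745 units in WT cells, and its groups did not overlap. Among C/D core proteins the differences were 0.03 for Fbl, the methyltransferase, 0.03 for Nop56, -0.13 for Nop58 and 0.08 for Snu13. Of the assembly factors, Shq1, which escorts Dkc1, differed by -0.44 (SE 0.15), and Rpap3, of the complex that assembles C/D particles, by -0.45 (SE 0.09). All 3 KO arrays were below all 3 WT arrays for Rpap3, but its KO values of 47.8 to 52.2 units were also below background. Mphosph10, a protein of the U3 particle, read 153, 175 and 138 units in KO cells, against 248, 205 and 227 units in WT cells, with no overlap (difference -0.55, SE 0.13). Like Nop10, Gar1 and Znhit3 had all KO arrays above all WT arrays (10.2% of all probe sets, 5.58% of those above background). Nufip1 and Znhit6 had them all below, like Rpap3 and Mphosph10 (4.65% of all, 6.97% of those above background). Without the block each gene named here had a limma adjusted p of 0.692 or above, and with it Rpap3 and Mphosph10 had 0.288.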

How the data were processed

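RNA of 3 KO and 3 WT pDC cultures (200 ng of total RNA each) was labelled and hybridised to Affymetrix Mouse Gene 1.0 ST arrays. The authors deposited 1 table of linear probe set intensity values. Background correction, normalization and summary method are not given in the sources used here. Values were taken to log2 without further scaling. Arrays give no read depth, and 3 arrays per group limit the precision: an exact permutation test of 3 against 3 cannot go below 0.1. All 21640 probe sets with 1 symbol entered limma 3.58.1 in R 4.3.3 (lmFit, eBayes, two-sided, Benjamini-Hochberg), KO minus WT, which was tested on simulated data. The 0 columns outside the 6 samples needed no handling.

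The labels tie each KO culture to the WT culture of the same mouse. Deviations from the group means correlated within mice (r = 0.81, 0.51 and 0.67), so the block by mouse is given where it changed a count and for some named members. An SE printed without mention of the block is from the fit without it. Such an SE also holds the differences between mice, and not only the spread of the within-mouse difference. Members and gene lists were chosen with earlier results of these data known. Named were, per class, up to 5 probe sets with the highest and 5 with the lowest mean among those of 1 sign in all mice. Listed rRNA-processing snoRNAs, snoRNAs named in the study's gene lists, and genes of particle proteins, assembly and processing were added. Probe sets of other symbols, and those with several symbols (1321) or none (11799), were not used. Genes that contain a snoRNA came from the RefSeq table (GRCm38.p6), which gives no strand, so hosts are matched by position alone, and 2 probe sets of 1 symbol share a host. Hosts, particle genes and cell type markers were read by the probe set of the symbol with the highest mean. Alternatives were quantile normalization, median centring, a floor, 2 filters on low values, 1 or averaged probe sets per symbol, all deposited probe sets, array weights, a trended robust fit, the block, and leaving out arrays or mice.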

Additional observations from a re-analysis of the deposited data

How the results depend on the processing

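In every setting tried, 0 snoRNA probe sets passed an adjusted p under 0.05, also with the mouse as replicate block. With 1 KO and 1 WT array per mouse the block cannot alter a log2 difference. The class medians of 0.0076 and -0.10 are therefore the same in both fits by design. Unadjusted, the number lower in KO was 3 (1.9% of all probe sets), and it was 10 with the block (5.99% of all). It was 5 with array weights (and 2 higher), 12 without mouse 1 and 0 without mouse 2. For those settings the share of all probe sets is not given, so the counts cannot be read as particular to snoRNAs. Leaving out mouse 1 also changed the array as a whole, with 108 calls at an adjusted limma p under 0.05 among all probe sets. The class difference kept its sign, with 0.017 to 0.15 when arrays or mice were left out and 0.085 to 0.13 otherwise. The H/ACA median ran between -0.21, with KO of mouse 1 omitted, and 0.12, with WT of mouse 1 omitted, and was -0.048 after centring and -0.012 after quantile normalization. The C/D median ran between -0.33 and 0.056 for the same arrays. With arrays or mice left out, values changed sign for Snord22 (-0.39 to 0.21), Snora73a (-0.18 to 0.20), Snord61 (-1.01 to 0.19), Snord118 (-0.39 to 0.86), Snord52 (-0.36 to 0.11), Snora16a (-0.44 to 0.12) and Snora73b (-0.26 to 0.096). Snord22 was 0.018 after quantile normalization, and Snora73a was -0.036 after centring and -0.068 with array weights. For Snord61 and Snord118 the sign changed only where 1 array of mouse 1 was left out and its partner kept: without whole mice they were -0.45 to -0.28 and 0.10 to 0.58. For the others the cause was not tested. Centring moved the median of all probe sets to -0.03, against 0.03. The floor brought Snord61 to -0.0034. The alternative without imprinted clusters could not be run, as none was a member.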
